A study of Mus musculus with 6 samples.

Results

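The genes of the CDK inhibitors were examined in MLL-AF9 LGMP, a sorted progenitor population of a mouse leukaemia model, in N1-IC cells against WT cells. The group holds the 7 genes Cdkn1a, Cdkn1b, Cdkn1c, Cdkn2a, Cdkn2b, Cdkn2c and Cdkn2d, chosen by name as the Cip/Kip and Ink4 families, among 18194 genes with a probe set of their own. All probe sets whose platform symbol is one of these names were taken, which gave 9 of the 45101 probe sets on the array. Cdkn1a and Cdkn1b had 2 probe sets each and the other genes 1 each.

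The study measured RNA on 6 Affymetrix arrays, 3 per genotype. N1-IC cells came from MLL-AF9 EF1α wt/lsl-N1-IC ROSA wt/CreERT2 mice and WT cells from MLL-AF9 EF1α wt/wt ROSA wt/CreERT2 mice, where N1-IC is the intracellular, active part of the Notch1 receptor, placed in the EF1α locus, and CreERT2 a recombinase that needs tamoxifen. Cells of both genotypes carried an MLL-AF9-IRES-YFP construct, which joins the leukaemia fusion gene to a fluorescent marker, and both were exposed to tamoxifen. Irradiated wild-type recipients, 12 weeks old, received 50000 cKit+ transduced cells with 250000 wild-type marrow cells. The mice were given 2 tamoxifen injections of 0.2 mg per g body weight starting 4 weeks later, and their marrow was taken 6 days after the last one. Sorted cells were Lineage negative, cKit+, Sca1-, YFP+, CD34+ and FcgRII/III+. The number of mice per sample is not stated, so the p-values below measure only the spread between these samples, which may be technical. All N1-IC samples were labelled female and all WT samples male, so genotype and sex cannot be told apart, and all 7 genes lie on autosomes.

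The array medians lay between 49.6 and 51.0 intensity units, and the distributions of the arrays, compared value by value after sorting, differed from their mean by at most 0.103 log2 units. All 4 measured genes of the sort gate (Kit, Cd34, Fcgr2b and Fcgr3) and all 5 primary granule genes lay above the median of every array. The 4 sort gate means were all lower in N1-IC (median log2 fold change -0.21), and 0 of the 4 passed limma's adjusted threshold or an unadjusted p under 0.05. Cd34 was at 11.04, 10.05 and 11.28 in N1-IC, against 11.69, 11.52 and 11.33 in WT, so the genotypes did not overlap (log2 fold change -0.72, unadjusted p of 0.0666). WT replicate 1 had a mean of 7.89 over 13 late granulocyte genes, against 10.21 to 10.69 on the N1-IC arrays and 10.48 and 10.11 on the other WT arrays. WT replicate 2 had a mean of 9.02 over 12 erythroid and megakaryocyte genes, against 6.29 to 6.94 on the N1-IC arrays and 6.33 and 6.91 on the other WT arrays. It also had Xist, an RNA of female cells, at 10.70 log2 units, against 12.73 to 12.82 on the N1-IC arrays and 5.64 and 5.42 on the other WT arrays. The chromosome Y genes Eif2s3y, Uty and Kdm5d were at 10.34, 6.70 and 6.88 in WT replicate 2, the lowest WT values. They reached at most 3.46, 3.20 and 3.23 on the N1-IC arrays. WT replicate 2 thus held both Xist and chromosome Y RNA, and the reason was not tested. Because whole populations were measured, fewer cells of a type and less RNA per cell cannot be told apart.

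CDK inhibitors hold cells in the G1 phase. Proteins of the Cip/Kip family (p21, p27 and p57) bind many cyclin-CDK complexes, while those of the Ink4 family (p16, p15, p18 and p19) bind Cdk4 and Cdk6 and keep them from D-type cyclins, so that Rb proteins stay active and hold back E2F factors. In blood formation they are known for keeping stem cells quiescent and for the exit from the cycle as progenitors mature, and the Cdkn2a/Cdkn2b locus is a well-known tumour suppressor. Notch acts through the DNA-binding protein Rbpj, whose core site reads TGGGAA, and through its targets of the Hes family, repressors known to bind N-boxes (CACNAG).

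Because the largest differences below were those of Cdkn2c, Cdkn1a and Cdkn1b, the 250 bases before their start sites are shown (RefSeq, GRCm38.p6, each 5′ to 3′ on the strand of the gene). Of the 7 genes 6 had a window in the table, all but Cdkn1c, and Cdkn1a, Cdkn2a and Cdkn2c had 2 start sites each. Capitals mark matches, on either strand, to the Rbpj core TGGGAA, the N-box CACNAG, the Myc E-box CACGTG or the GC box GGGCGG. No match overlapped another in the member windows.
Cdkn2c, upstream start site, chr4:109666757-109667006, minus strand: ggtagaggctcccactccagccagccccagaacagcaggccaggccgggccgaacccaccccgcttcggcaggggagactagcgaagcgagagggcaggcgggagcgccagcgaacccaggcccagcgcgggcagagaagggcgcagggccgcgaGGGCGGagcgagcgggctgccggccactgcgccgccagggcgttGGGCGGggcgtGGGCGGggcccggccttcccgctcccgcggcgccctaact
Cdkn2c, downstream start site, chr4:109665373-109665622, minus strand: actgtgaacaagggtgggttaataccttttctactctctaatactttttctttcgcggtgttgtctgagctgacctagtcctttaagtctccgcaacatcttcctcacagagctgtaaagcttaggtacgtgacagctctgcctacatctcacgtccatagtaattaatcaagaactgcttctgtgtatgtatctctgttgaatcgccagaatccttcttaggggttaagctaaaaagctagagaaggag
Cdkn1b, chr6:134920151-134920400, plus strand: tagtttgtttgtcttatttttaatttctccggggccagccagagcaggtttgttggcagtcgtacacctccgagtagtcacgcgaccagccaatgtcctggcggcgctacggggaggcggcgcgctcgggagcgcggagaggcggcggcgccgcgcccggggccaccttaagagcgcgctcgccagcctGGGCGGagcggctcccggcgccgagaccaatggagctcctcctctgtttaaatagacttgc
Cdkn1a, downstream start site, chr17:29093519-29093768, plus strand: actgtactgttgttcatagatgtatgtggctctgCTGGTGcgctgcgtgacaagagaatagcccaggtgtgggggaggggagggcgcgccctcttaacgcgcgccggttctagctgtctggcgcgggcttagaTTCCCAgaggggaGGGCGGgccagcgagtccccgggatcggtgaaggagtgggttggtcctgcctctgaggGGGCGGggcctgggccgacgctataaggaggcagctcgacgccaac

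The Cdkn2c windows held no Rbpj core, N-box or E-box. The upstream one had 3 GC boxes and a GC content of 77.2%, and the downstream one had none and 42.8%. The Cdkn1b window had 1 GC box and no other match. The Cdkn1a window shown had 1 TGGGAA match in reverse (TTCCCA, starting 117 bases before the start site), 1 CACNAG match in reverse and 2 GC boxes, and its upstream window had no match. Among all 9 member windows TGGGAA occurred in 3 (Cdkn1a, Cdkn2a and Cdkn2d), CACNAG in 2 and CACGTG in 0, and GGGCGG in 5. Of all 32851 RefSeq windows of this length, 21.6% held TGGGAA, 36.7% CACNAG, 6.02% CACGTG and 32.7% GGGCGG. These matches describe letters only.

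The arrays compare tamoxifen-treated cells with and without the N1-IC allele, which also differ in sex. None of the 9 CDK inhibitor probe sets passed limma at a Benjamini-Hochberg adjusted p under 0.05 over all probe sets. Of all probe sets 0.00887% passed (4 of 45101), all 4 lower in N1-IC. Among the 4 was the brightest probe set of Eif2s3y, a gene on chromosome Y (log2 fold change -7.75, limma adjusted p of 0.00201). Genotype and sex coincide in these samples. Log2 intensities of 3 of the 9 differed at an unadjusted p under 0.05, against 7.69% of all probe sets. Cdkn2c and a Cdkn1b probe set had higher means in N1-IC (3.57% of all probe sets), and a Cdkn1a probe set had a lower one (4.13%). In 4 of the 9 the arrays of the genotypes did not overlap, against 14.4% of all probe sets, 2 with the N1-IC arrays above (7.39% of all probe sets) and 2 with the N1-IC arrays below (7.02%). The median log2 fold change over the 9 was 0.09, and over all probe sets 0.0. Taken as 1 probe set per gene, the one with the highest mean, 0 of 7 genes passed the adjusted threshold in the limma fit, against 0.0055% of all genes. By these probe sets 2 of 7 genes, Cdkn2c and Cdkn2b, did not overlap, against 14.8% of all genes, and 1 of 7 had an unadjusted p under 0.05, against 7.23%. Probe sets of 1 gene share its RNA and are not separate evidence.

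**Figure D1:**
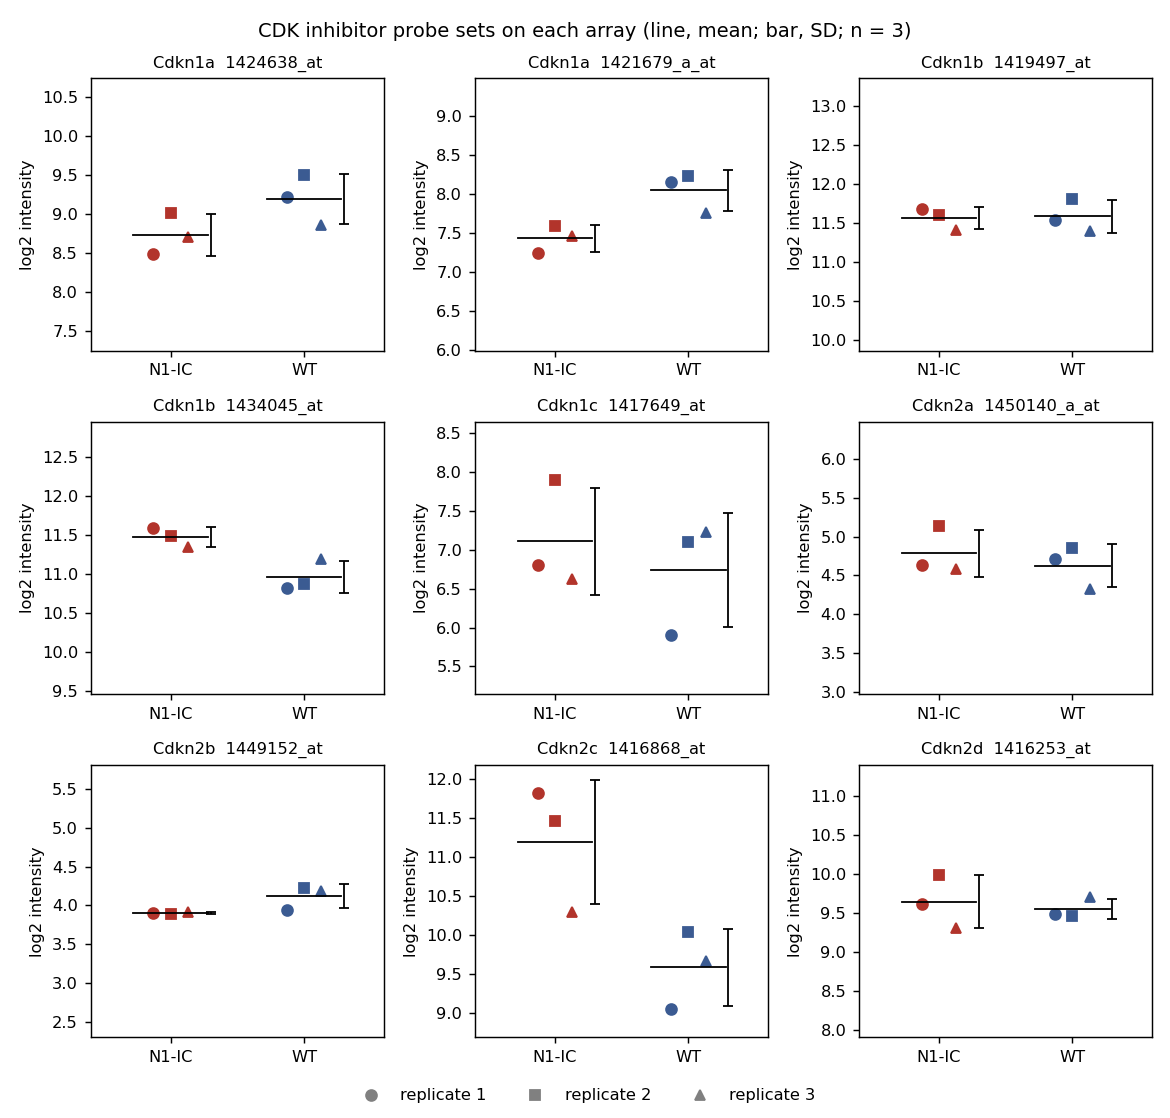
Log2 intensity (y axis, a span of equal size in every panel) of each CDK inhibitor probe set on the N1-IC arrays (red, left) and the WT arrays (blue, right), with replicate numbers as symbols, the mean as a line and the SD as a bar (n = 3). Cdkn2c spans the most, from 9.05 to 11.82, without overlap of the genotypes, and Cdkn2b the least, from 3.89 to 4.22.

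Of the Ink4 genes Cdkn2c had the largest difference. It encodes p18, an inhibitor of Cdk4 and Cdk6 known in mice to limit the self-renewal of blood stem cells. Its log2 intensity was 11.82, 11.47 and 10.30 on N1-IC arrays 1, 2 and 3, against 9.05, 10.04 and 9.66 on WT arrays 1, 2 and 3. All N1-IC arrays lay above all WT arrays, but N1-IC replicate 3 was nearer to the highest WT array, 0.25 above it, than to the other N1-IC arrays. The means were 11.19 ± 0.795 in N1-IC and 9.58 ± 0.501 in WT (SD, n = 3 each), a log2 fold change of 1.61 ± 0.44 (limma's standard error) or 3.05-fold. Its 95% interval ran from 0.53 to 2.69, the unadjusted p was 0.0104 and the limma adjusted p 0.639. Of all probe sets 0.423% had a fold change of this size or more in either direction. Its spread within groups was also wide, with a pooled SD of 0.66 where the median over all probe sets was 0.18. The lowest WT value was that of replicate 1, the array with the low late granulocyte genes, and without this array the log2 fold change was 1.34. Without WT replicate 2, the array with the high erythroid genes, it was 1.84. The part of these cell types in the difference was not tested.

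Cdkn2d, Cdkn2a and Cdkn2b showed small differences. Cdkn2d, which encodes the relative p19 of p18, had log2 intensities of 9.62, 9.99 and 9.31 in N1-IC and 9.49, 9.46 and 9.70 in WT. The WT values lay inside the N1-IC range, and the log2 fold change was 0.09 with a 95% interval from -0.37 to 0.54 (limma adjusted p of 0.898). Cdkn2a, which encodes both p16 and the unrelated protein ARF from different first exons, was at 4.64, 5.13 and 4.58 in N1-IC and 4.71, 4.85 and 4.32 in WT, with overlapping groups (log2 fold change 0.16 ± 0.21). Which of its transcripts the probe set reads was not analysed here. Its neighbour Cdkn2b, which encodes the TGF-beta responsive inhibitor p15, was at 3.90, 3.89 and 3.91 in N1-IC, against 3.94, 4.22 and 4.19 in WT.

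Every N1-IC array of Cdkn2b thus lay below every WT array, by 0.03 at the nearest. Its log2 fold change was -0.22 ± 0.11, with a limma adjusted p of 0.652. The N1-IC arrays had their lower quartiles at 3.89 to 3.91 log2 units, the same range as the Cdkn2b values there. Cdkn2a and Cdkn2b, which no other protein-coding gene separates on chromosome 4 (RefSeq, GRCm38.p6), lay below the median of all 6 arrays. Without detection calls it is unknown whether these low values exceed background, and they do not show that the genes were silent. The other 7 probe sets lay above the median of all 6 arrays.

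Of the Cip/Kip genes Cdkn1a had lower means in N1-IC by both of its probe sets. It encodes p21, which is induced by DNA damage and other stresses. By probe set 1421679_a_at its log2 intensities were 7.24, 7.59 and 7.46 in N1-IC, against 8.16, 8.23 and 7.75 in WT. Every N1-IC array lay below every WT array, by 0.16 at the nearest, where WT replicate 3 was the low WT array. The log2 fold change was -0.62 ± 0.17, a level of 0.652 times that in WT, with a 95% interval from -1.02 to -0.21, an unadjusted p of 0.00972 and a limma adjusted p of 0.639. By probe set 1424638_at the log2 intensities were 8.48, 9.01 and 8.70 in N1-IC, against 9.22, 9.50 and 8.86 in WT. Here N1-IC replicate 2 lay above WT replicate 3, so the groups overlapped, and the log2 fold change was -0.47 ± 0.21 (95% interval from -0.97 to 0.04, limma adjusted p of 0.644). The probe sets followed each other over the 6 arrays with a Pearson r of 0.946, both lowest in N1-IC replicate 1 and highest in WT replicate 2. Without WT replicate 2 the log2 fold changes of 1421679_a_at and 1424638_at were -0.53 and -0.31.

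The 2 probe sets of Cdkn1b, which encodes p27, an inhibitor that accumulates in resting cells, did not give the same picture. By 1434045_at the log2 intensities were 11.59, 11.49 and 11.34 in N1-IC, against 10.82, 10.87 and 11.19 in WT. Every N1-IC array was higher than every WT array, by 0.15 at the nearest, and WT replicate 3 was the high WT array. The log2 fold change was 0.52 ± 0.14, or 1.43-fold, with a 95% interval from 0.18 to 0.85, an unadjusted p of 0.00887 and a limma adjusted p of 0.639. By 1419497_at they were 11.68, 11.60 and 11.41 in N1-IC, against 11.54, 11.81 and 11.40 in WT. These groups overlapped almost wholly, with a log2 fold change of -0.02 ± 0.14 and a 95% interval from -0.37 to 0.32 (limma adjusted p of 0.966). Over the 6 arrays the probe sets had a Pearson r of -0.154. Of 4694 genes with exactly 2 probe sets 41.9% had fold changes of opposite sign, and 37.2% of the 2069 whose probe sets both lay at or above the median level. Which parts of the Cdkn1b transcript the probe sets read was not analysed here.

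Cdkn1c, which encodes p57, an imprinted gene known for keeping blood stem cells quiescent, varied mainly within groups. Its log2 intensities were 6.81, 7.89 and 6.62 in N1-IC and 5.90, 7.10 and 7.23 in WT. The highest value was that of N1-IC replicate 2 and the lowest that of WT replicate 1, and the groups overlapped. The means were 7.11 ± 0.687 in N1-IC and 6.74 ± 0.735 in WT (SD, n = 3 each), with a log2 fold change of 0.37 ± 0.47 and a 95% interval from -0.79 to 1.52 (limma adjusted p of 0.825). Without WT replicate 1, the array with low late granulocyte genes, the log2 fold change was -0.056.

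**Figure D2:**
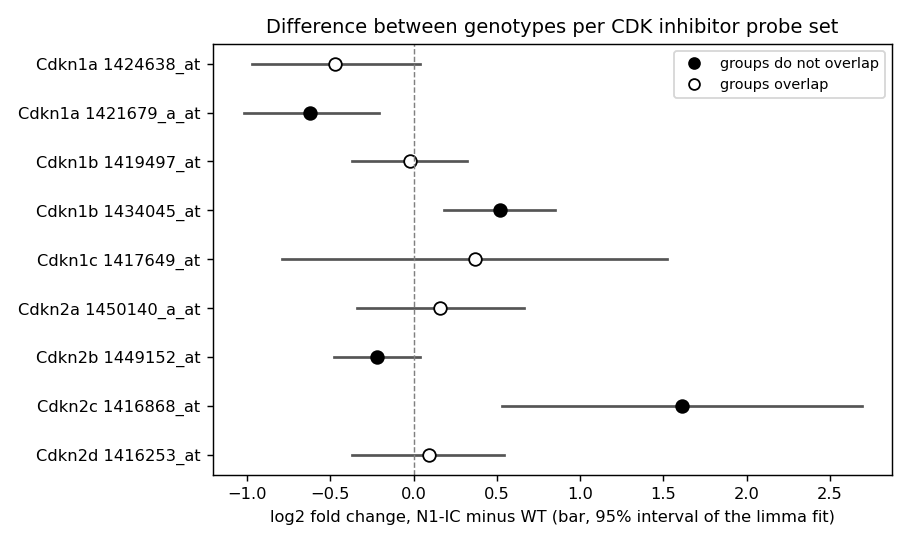
Log2 fold change of N1-IC over WT for each CDK inhibitor probe set (x axis; points, with the 95% interval of the limma fit as bars), filled where the 3 N1-IC and 3 WT arrays do not overlap. The intervals of Cdkn2c, Cdkn1b 1434045_at and Cdkn1a 1421679_a_at leave out 0 before adjustment, and Cdkn1b 1419497_at sits at -0.02.

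**Figure D3:**
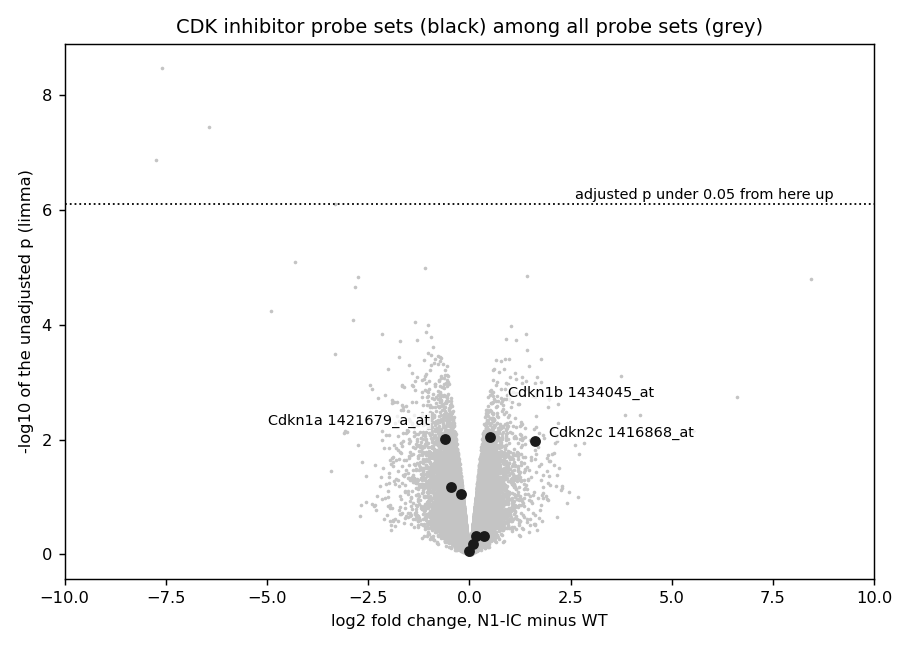
Log2 fold change of N1-IC over WT (x axis) against -log10 of the unadjusted limma p (y axis) for all 45101 probe sets in grey, with the 9 CDK inhibitor probe sets in black and a dotted line where the adjusted p reaches 0.05. The members lie inside the grey cloud, well under the line that 4 probe sets reach.

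Genes around the inhibitors were described by lists that were written with earlier results of these data known. Each gene was taken by its brightest probe set alone. Over 113 such genes in 8 lists 0 passed limma's adjusted threshold (smallest adjusted p of 0.624), 7 (6.19%) had an unadjusted p under 0.05 against 7.23% of all genes, and in 17 (15.0%) the groups did not overlap against 14.8% of all genes. These shares are near those of all genes. The median log2 fold change over all genes was 0.01. Of 13 cyclin and CDK genes, the targets of the inhibitors, 6 had higher and 7 lower means in N1-IC, with a median log2 fold change of -0.02. Cdk4, the kinase bound by p18, had log2 intensities of 12.11, 11.97 and 12.22 in N1-IC, against 12.35, 12.41 and 12.23 in WT. Every N1-IC array was below every WT array, by only 0.01 at the nearest, with a log2 fold change of -0.23 ± 0.11 (unadjusted limma p of 0.0819). The cyclin genes Ccne1 and Ccnd1 had log2 fold changes of -0.57 ± 0.31 and 0.81 ± 0.57, and Cdk7, of the CDK-activating kinase, had -0.13. For Ccne1 too every N1-IC array was below every WT array, by 0.14 at the nearest, while the groups of Ccnd1 and Cdk7 overlapped.

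Among 13 Rb and E2F genes, which act after the CDKs, 6 had higher and 7 lower means (median log2 fold change -0.02). Rb1, the retinoblastoma gene, had log2 intensities of 11.24, 11.40 and 11.22 in N1-IC, against 10.98, 10.90 and 11.13 in WT. All N1-IC arrays were above the WT arrays, with a log2 fold change of 0.28 ± 0.11 (unadjusted p of 0.0387). E2f5, a repressive E2F, was at 5.05, 4.83 and 5.48 in N1-IC, against 6.01, 6.35 and 5.85 in WT. Here all N1-IC arrays were below, with a log2 fold change of -0.95 ± 0.21, an unadjusted p of 0.00374 and a limma adjusted p of 0.624. The N1-IC values lay below the array medians and the WT values above them, so whether the N1-IC values exceed background is unknown. E2f6 and E2f4 had -0.31 and -0.16. Of 15 genes for the turnover of the Cip/Kip proteins 7 had higher and 8 lower means, with log2 fold changes of -0.52 ± 0.21 for Ubac1, -0.19 for Rnf123, which together form a ubiquitin ligase for p27, -0.14 for Pcna and 0.08 for Cul4b.

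Of 24 known activators of CDK inhibitor genes 22 were measured, and the other two were not analysed here. Of the 22 measured genes 10 had higher and 12 lower means (median log2 fold change -0.02). Klf4, a factor known to induce p21, was at 10.15, 10.71 and 10.07 in N1-IC, against 11.20, 11.39 and 10.69 in WT, with a log2 fold change of -0.78 ± 0.25, an unadjusted p of 0.0191 and a limma adjusted p of 0.639. N1-IC replicate 2 overlapped WT replicate 3. Foxo1, Runx1 and Ets1 had -0.81 ± 0.36, -0.33 ± 0.15 and 0.57 ± 0.31. Of 20 known repressors 11 had higher and 9 lower means (median 0.02). Among them the Notch targets Hes1 and Hey1 had log2 fold changes of 1.20 ± 0.38 and 0.35 ± 0.09 and did not overlap, Twist1 had -0.39 ± 0.15 and Myc, a known repressor of p21 and p15, had -0.55 ± 0.23. Hey1 and Twist1 lay below the median of all 6 arrays, so whether they exceed background is unknown. In the list of ARF partners and their relatives 5 of 6 genes were measured, and of these 2 had higher and 3 lower means, with Mdm4, Huwe1, Usp7 and Mdm2 at log2 fold changes of 0.12, -0.08, -0.05 and -0.03. Of 11 Notch targets 7 had higher and 4 lower means, with a median log2 fold change of 0.11, and Nrarp, a feedback inhibitor of Notch, had 2.83 ± 0.80 (limma adjusted p of 0.639). Below the median of every array lay 6 of the 11, so whether these exceed background is unknown.

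Proliferation genes showed no common direction between the genotypes. Of 19 measured genes 9 had higher and 10 lower means in N1-IC, and 0 passed limma (0 also at an unadjusted p under 0.05). Their mean was 11.05, 11.15 and 10.91 log2 units on the N1-IC arrays, against 10.85, 11.05 and 11.12 on the WT arrays, so the groups overlapped. The replication licensing genes Mcm3, Mcm4 and Mcm5 and the mitotic cyclin gene Ccnb2 had log2 fold changes of 0.21, 0.28, 0.30 and 0.28, none past the threshold. Of the other licensing genes Mcm2, Mcm6 and Mcm7 had 0.05, -0.10 and -0.16, and the proliferation marker gene Mki67 had -0.40 ± 0.26. The genotypes did not overlap for Mcm3, which was higher in N1-IC, and for Mcm6, Mcm7 and Pcna, which were lower. These made up 21.1% of the 19 genes, against 14.8% of all genes.

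Markers of other cell types differed between single arrays and, for some genes, between the genotypes. Late granulocyte genes had list means of 10.50, 10.69 and 10.21 in N1-IC, against 7.89, 10.48 and 10.11 in WT. The low array was WT replicate 1, and WT replicate 2 lay inside the N1-IC range. With WT replicate 1 included, 13 of 13 genes had higher means in N1-IC (median log2 fold change 0.87). Of the 13 genes 8 lay above the median of every array. Mmp9, which encodes a protease of granulocytes, had the largest difference among them, at 8.59, 9.27 and 8.78 in N1-IC, against 4.14, 7.36 and 7.01 in WT. Its genotypes did not overlap, with a log2 fold change of 2.71 ± 0.84, an unadjusted p of 0.0174 and a limma adjusted p of 0.639. Erythroid and megakaryocyte genes had list means of 6.52, 6.29 and 6.94 in N1-IC, against 6.33, 9.02 and 6.91 in WT. The high array was WT replicate 2, and the other WT arrays lay inside the N1-IC range. With WT replicate 2 included, 9 of 12 genes had lower means in N1-IC (median -0.68). The genotypes did not overlap for 2 of the 12 genes (16.7%, against 14.8% of all genes), in opposite directions. The erythroid factor gene Klf1 was at 5.46, 5.68 and 6.14 in N1-IC, against 6.16, 10.04 and 6.25 in WT, and the platelet glycoprotein gene Gp9 at 8.80, 8.72 and 8.82 in N1-IC, against 7.75, 7.93 and 8.66 in WT (log2 fold change 0.66, unadjusted p of 0.0318). The other means higher in N1-IC were those of Hba-a1 and Itga2b, with log2 fold changes of 0.19 and 0.04. Pf4, another platelet gene, had the smallest unadjusted limma p of the list (0.0195) and a lower mean in N1-IC (log2 fold change -1.48). Pf4 was at 6.51, 6.87 and 7.39 in N1-IC, against 8.75, 9.09 and 7.39 in WT, so it was high in WT replicate 1 too. Mast cell, basophil and eosinophil genes, with 8 of 10 means higher, had list means of 7.14, 8.31 and 8.30 in N1-IC, against 7.40, 8.72 and 7.01 in WT. Monocyte and macrophage genes had list means of 8.78 to 9.07 in N1-IC and 8.76 to 9.04 in WT. None of the T lineage genes lay above the median of every array, with list means of 4.40 to 4.72 in N1-IC and 4.35 to 5.13 in WT. B lineage genes had list means of 5.87 to 6.14 in N1-IC and 5.93 to 6.09 in WT. The highest value of both Cdkn1a probe sets, of Cdkn1b 1419497_at and of Cdkn2b was that of WT replicate 2, and the lowest of Cdkn2c, Cdkn1c and Cdkn1b 1434045_at that of WT replicate 1. The part of these cell types in the members' values was not tested.

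**Figure D4:**
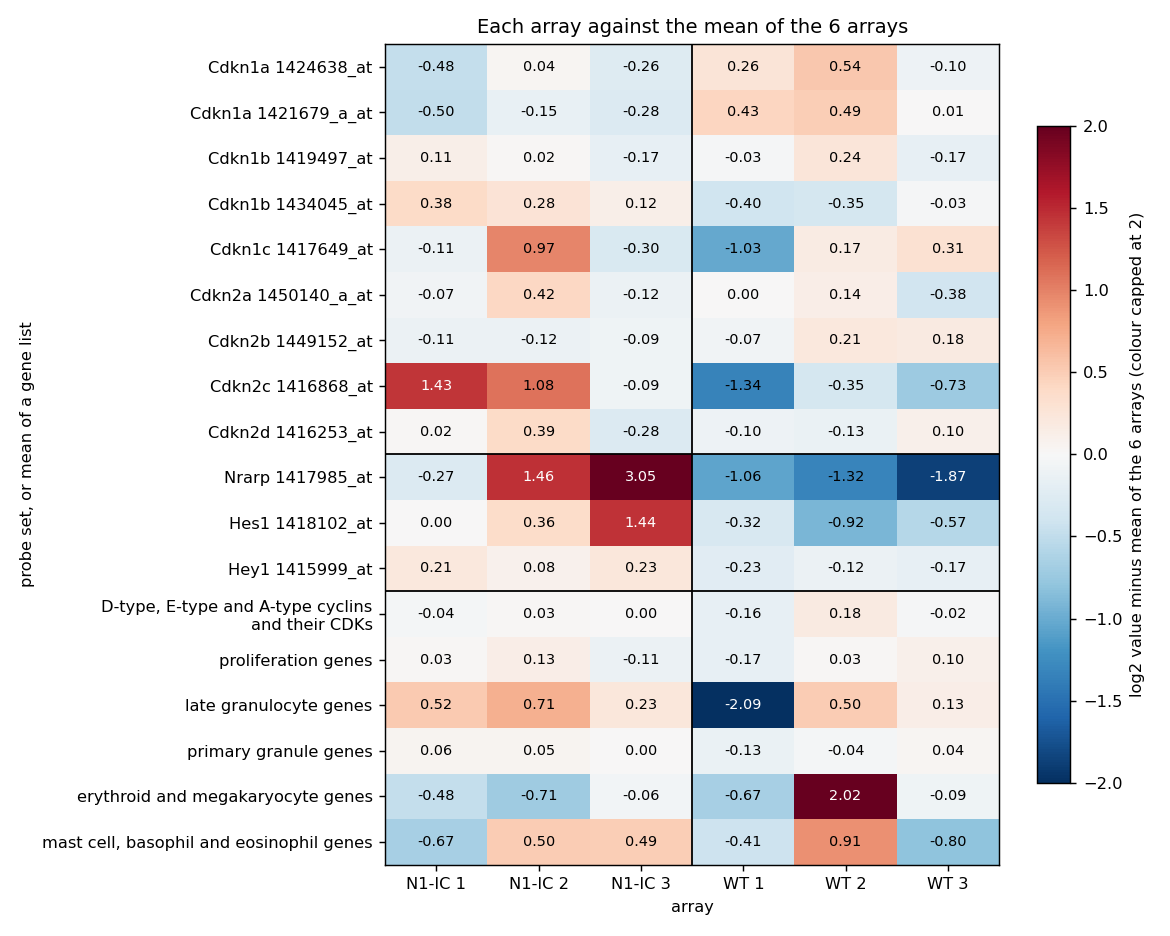
Log2 value of each array (columns) minus the mean of the 6 arrays for the CDK inhibitor probe sets (top rows), 3 Notch targets (middle rows) and the means of 6 gene lists (bottom rows), with colour from blue (lower) to red (higher). Cdkn2c is highest in N1-IC replicates 1 and 2 (1.43 and 1.08), late granulocyte genes are low in WT replicate 1 (-2.09) and erythroid genes high in WT replicate 2 (2.02).

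To place each member among other genes, the 3 genes most like it over the 6 arrays were taken by Pearson correlation, out of 10825 genes at or above the median level. The values are a description over arrays that share their group differences. As the highest of 10825 correlations over 6 arrays, they do not show joint regulation. Cdkn2c was most like Map2k1 (r of 0.990), Ubl3 (0.981) and Zfand3 (0.978), and 22 genes (0.203%) reached 0.95. Map2k1, a kinase gene of the Ras pathway, had a log2 fold change of 0.21 and a range of 0.40 over the arrays, so it shared the order of the arrays and not the size of the differences. Cdkn1a was most like the Polycomb gene Phc1 (0.993), Pus1 (0.992) and Rhobtb1 (0.991), with log2 fold changes of -0.59, -0.40 and -1.06. Cdkn1b (1419497_at) was most like Lrp1 (0.998), Stk16 (0.980) and Zbtb26 (0.977). Cdkn1c was most like Prr11 (0.986), Cdkn3 (0.982), which encodes a phosphatase that acts on CDKs, and Cebpa (0.981). Cebpa was almost flat, with a range of 0.08 over the arrays, where Cdkn1c had 2.0. Cdkn2a was most like Gtdc1 (0.991), Suz12 (0.977) and Tmem192 (0.974), Cdkn2b like Hdgf (0.988), Gins2 (0.988) and Tbccd1 (0.983), and Cdkn2d like 2010308F09Rik (0.996), Taok1 (0.982) and Tcirg1 (0.977). Suz12 and Hdgf had ranges of only 0.24 and 0.11, and Cdkn2a and Cdkn2b themselves lay below the median of all 6 arrays.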

How the data were processed

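From 6 sorted samples 5 ng of total RNA each was amplified with a NuGEN Ovation kit and hybridised to Affymetrix arrays after biotin labelling, per the labels' protocols. The deposited table holds linear intensity values made by the authors with RMA, per the submitters' processing notes (version not given in the sources used here). RMA corrects background and equalises the distributions of arrays, so differences are relative within an array. Samples were grouped by their labels. Log2 was taken with no offset, and all 45101 probe sets, controls included, were fitted together with limma 3.58.1 in R 4.3.3 (lmFit and eBayes, no trend, not robust, no replicate block). P-values were adjusted by Benjamini-Hochberg over all probe sets, with a threshold of 0.05. Errors of log2 fold changes are moderated standard errors, and intervals are at 95%. The number of arrays limits the precision. The fit was tested on simulated data. In the platform annotation 34958 probe sets had 1 symbol, 932 several and 9211 none.

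The members and lists were chosen with earlier results of these data known. Named were all member probe sets and up to 4 genes of each pathway list with the smallest unadjusted p. Nrarp, Hes1 and Myc were also named, with the 3 genes most like each member by its brightest probe set. Xist, Eif2s3y, Uty and Kdm5d were named as a check of the stated sexes. Further proliferation genes and some cell type markers were named outside this rule. A few genes of the lists were not analysed here. Alternatives were array weights, a robust prior, a mean-variance trend, renewed quantile normalization, median centring, a filter at the median level, other choices among a gene's probe sets, an offset, a replicate block, other thresholds and leaving out each array.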

Additional observations from a re-analysis of the deposited data

How the results depend on the processing

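No CDK inhibitor probe set passed an adjusted p under 0.05 in any alternative run, where the smallest adjusted p was 0.302. Of 138 member values under alternatives 131 kept their direction. The fold changes of Cdkn2c, of both Cdkn1a probe sets, of Cdkn1b 1434045_at and of Cdkn2b kept theirs throughout, and that of Cdkn2c ranged from 1.30 to 2.06 on the log2 scale (2.06 without N1-IC replicate 3, with a limma adjusted p of 0.465). Except for Cdkn1a 1424638_at, the groups of these probe sets did not overlap on the 6 arrays. Leaving out an array could therefore not reverse their direction, and those runs did not test it. The 7 reversals concerned Cdkn1b 1419497_at, Cdkn1c, Cdkn2a and Cdkn2d, whose groups overlap, and their cause was not tested. With the mean of both Cdkn1b probe sets the value was 0.25 in place of that of 1419497_at alone. Leaving out 1 array at a time, Cdkn1b 1419497_at ran from -0.12 to 0.09, Cdkn1c from -0.056 to 0.61, Cdkn2a from -0.016 to 0.27 and Cdkn2d from -0.086 to 0.25. Leaving out 1 array, 4 or 5 of the 9 CDK inhibitor probe sets did not overlap, against 22.7% to 32.3% of all probe sets. Groups that do not overlap on all arrays cannot come to overlap when an array is left out. A count of at least 4 was therefore fixed beforehand and tested nothing. The probe set added to these 4 was Cdkn1a 1424638_at, in the runs without N1-IC replicate 2 and without WT replicate 3. At an unadjusted p under 0.05 there were 3 of 9 member probe sets, 7 of 113 pathway genes and 3470 of all probe sets. The count of all probe sets passing was 4, and it became 7 with a mean-variance trend, 1 with the brightest probe set per gene, 10 at an adjusted p under 0.1 and 3 to 8 without single arrays, with 8 without WT replicate 2. Same-numbered samples did not deviate together (correlations of 0.013, 0.04 and -0.077 over all probe sets), so the numbers were not taken as pairs. With the replicate number as a block the count was 2, and the log2 fold change of Cdkn2c stayed at 1.61 with an adjusted p of 0.734. In that fit 0 member probe sets passed. The array intensities carry no depth, and low values such as those of Cdkn2a and Cdkn2b may not exceed background.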

Other observations

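Cdkn2c and the Notch feedback gene Nrarp did not share an order among the N1-IC arrays. Nrarp was at 8.01, 9.74 and 11.33 log2 units on N1-IC arrays 1, 2 and 3, against 7.22, 6.96 and 6.41 on WT arrays 1, 2 and 3, and Hes1 at 6.44, 6.80 and 7.88 in N1-IC, against 6.12, 5.52 and 5.87 in WT. Cdkn2c was at 11.82, 11.47 and 10.30 on the same N1-IC arrays, against 9.05, 10.04 and 9.66 in WT. The N1-IC array with the highest Nrarp and Hes1 thus had the lowest Cdkn2c, over 3 arrays and with no test. For these 3 genes the genotypes did not overlap, and the limma adjusted p was 0.639 for each. The pairing of these genes was chosen after its values were seen.

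Cdkn1b 1434045_at and Cdkn2c were both highest in N1-IC replicate 1 and lowest in WT replicate 1, and both Cdkn1a probe sets were lowest in N1-IC replicate 1.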
